A study of Mus musculus with 6 samples.

Results

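Insulin signalling and the FOXO transcription factors of the liver are described here through 9 genes, measured among 30701 named genes on arrays of mouse liver RNA. They were chosen by gene symbol from a list of 10 genes of the pathway, with the probe set of highest mean log2 signal over the 6 arrays kept for each gene. Each of the 9 had 1 probe set, so the signal decided nothing. Insr is not analysed here. The list was drawn up with results of these data in view, so the differences of its members are descriptions of these arrays.

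In hepatocytes, insulin binds its receptor, which phosphorylates the adaptor proteins IRS1 and IRS2. These recruit PI3-kinase, which leads to activation of AKT kinases, and AKT phosphorylates FOXO1 and FOXO3 so that they leave the nucleus. In fasting, when insulin is low, nuclear FOXO factors induce genes of glucose output, the adaptor gene Irs2 and the secreted binding protein gene Igfbp1. The signal acts largely on proteins, and the arrays measured RNA alone.

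The study compared livers of male mice aged 8 weeks. The HFD-inulin group held 3 offspring of mothers treated with inulin, a fermentable plant fibre, and the HFD group held 3 offspring of mothers on a high-fat diet. HFD also stands in the first group's title, and whether those mothers ate a high-fat diet too is not stated. The mice of both groups shared their sex, age and tissue, while the strain, the inulin dose, the offspring's own diet, the feeding state at collection and the number of litters are given by none of the sources used here. Without the litters, p-values measure only the spread between these samples.

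The values are log2 signals, with array medians between 1.17 and 1.26, and all 9 genes had means above the median probe set, between the 83.5th and the 96.6th percentile of all probe sets. Liver markers were high in every array. The mean log2 signal of 8 hepatocyte markers lay between 9.88 and 10.2, against 1.17 to 1.23 for 5 adipocyte markers and 2.04 to 2.15 for 6 pancreas markers. The arrays also split into parts that cross the groups, set by the mean of probe sets numbered on chromosome Y that share identical values. HFD-inulin arrays 1 and 2 and HFD array 1 were low (1.34 to 1.91) and HFD-inulin array 3 and HFD arrays 2 and 3 were high (2.99 to 3.24). Differences within this low-signal part and this high-signal part are given beside the results. Levels of different probe sets also reflect their probes, so members are not ranked against each other by level.

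The bases before the annotated starts of 5 members are shown first because they carry, or lack, the letters that FOXO factors are known to bind. Igfbp1 is the textbook gene of the insulin response element, and Irs1, Irs2, Foxo1 and Foxo3 are the IRS adaptor and FOXO factor genes among the members. Each is 250 bases from RefSeq (GRCm38.p6), read 5′ to 3′ on the gene's own strand and ending just before the start. Capitals mark matches to GTAAACA (the FOXO binding element), CAAAACA or TATTTTG (the parts of the insulin response element), on either strand. The windows are Igfbp1 at chr11:7197537-7197786, plus strand, Irs1 at chr1:82291440-82291689, minus strand, Irs2 at chr8:11008930-11009179, minus strand, Foxo1 at chr3:52268087-52268336, plus strand and Foxo3 at chr10:42276696-42276945, minus strand.
Igfbp1: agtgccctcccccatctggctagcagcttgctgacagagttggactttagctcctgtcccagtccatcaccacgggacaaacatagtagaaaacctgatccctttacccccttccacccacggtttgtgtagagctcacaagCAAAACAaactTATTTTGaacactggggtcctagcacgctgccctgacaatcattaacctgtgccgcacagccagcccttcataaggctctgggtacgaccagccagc
Irs1: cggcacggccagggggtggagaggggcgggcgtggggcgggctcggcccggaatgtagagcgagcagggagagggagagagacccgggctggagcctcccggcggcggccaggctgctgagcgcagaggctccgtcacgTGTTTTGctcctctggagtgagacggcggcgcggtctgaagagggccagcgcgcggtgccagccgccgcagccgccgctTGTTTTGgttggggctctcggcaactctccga
Irs2: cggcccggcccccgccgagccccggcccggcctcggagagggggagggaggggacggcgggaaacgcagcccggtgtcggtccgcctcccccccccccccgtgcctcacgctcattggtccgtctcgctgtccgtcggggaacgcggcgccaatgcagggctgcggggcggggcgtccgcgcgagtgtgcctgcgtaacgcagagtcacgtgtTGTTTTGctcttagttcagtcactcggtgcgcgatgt
Foxo1: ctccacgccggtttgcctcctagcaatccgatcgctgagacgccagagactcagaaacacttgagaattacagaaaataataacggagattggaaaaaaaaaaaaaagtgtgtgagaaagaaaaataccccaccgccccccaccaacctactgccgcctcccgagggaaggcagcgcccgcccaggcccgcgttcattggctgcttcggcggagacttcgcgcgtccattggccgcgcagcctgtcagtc
Foxo3: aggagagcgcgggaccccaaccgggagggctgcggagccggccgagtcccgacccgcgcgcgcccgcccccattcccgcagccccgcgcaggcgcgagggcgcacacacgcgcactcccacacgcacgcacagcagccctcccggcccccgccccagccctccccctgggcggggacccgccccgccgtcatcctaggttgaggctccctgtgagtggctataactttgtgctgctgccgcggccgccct

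Igfbp1 held both parts of the insulin response element on 1 strand, the first from 108 to 102 bases before the start and the second from 97 to 91, within the stretch CAAAACAAACTTATTTTG. That stretch was copied from the Igfbp1 window, so its match there was given. It occurred in 1 of 32851 windows of 250 bases, that of Igfbp1, and a stretch of 18 bases is seldom met again. Irs1 held CAAAACA on the opposite strand in 2 places (111 to 105 and 32 to 26 bases before the start), and Irs2 held it there once, from 37 to 31. The windows of Foxo1 and Foxo3 held none of the motifs. Of the 14 windows of the 9 members, which include several starts for some genes, 3 held CAAAACA (5.56% of all windows), 2 held TATTTTG (3.95%) and 0 held GTAAACA (3.17%). The second TATTTTG lay before a second start of Pik3r1, on the gene's own strand (151 to 145 bases before it). The motifs do not overlap each other in these windows, and a match is a description of the letters.

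No member passed the test between groups. With limma's adjusted p over all 65956 probe sets, 0 of 9 members were under 0.05, and 0.00% of all probe sets were. Without adjustment 3 of 9 were under 0.05, namely Foxo3, Foxo1 and Pik3r1, each with a lower mean in HFD-inulin, beside 5.15% of all probe sets (2.64% lower and 2.52% higher). Of these calls over all probe sets 48.8% were higher, and 68.3% after median centring of the arrays. The members' count was 6 without HFD-inulin array 3, a fit whose share over all probe sets was not counted. In 4 of 9 members the groups did not overlap, 3 lower and 1 higher, beside 10.3% of all probe sets (6.02% lower and 4.32% higher). Among the 10903 probe sets at least as bright as the dimmest member, 11.6% were under 0.05 without adjustment (2.82% lower) and 13.9% had groups apart. The members' median log2 difference was -0.24, against -0.02 over all probe sets and 0.03 over those 10903. Since the members were picked with these results known, the counts support nothing beyond the values themselves.

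**Figure D1:**
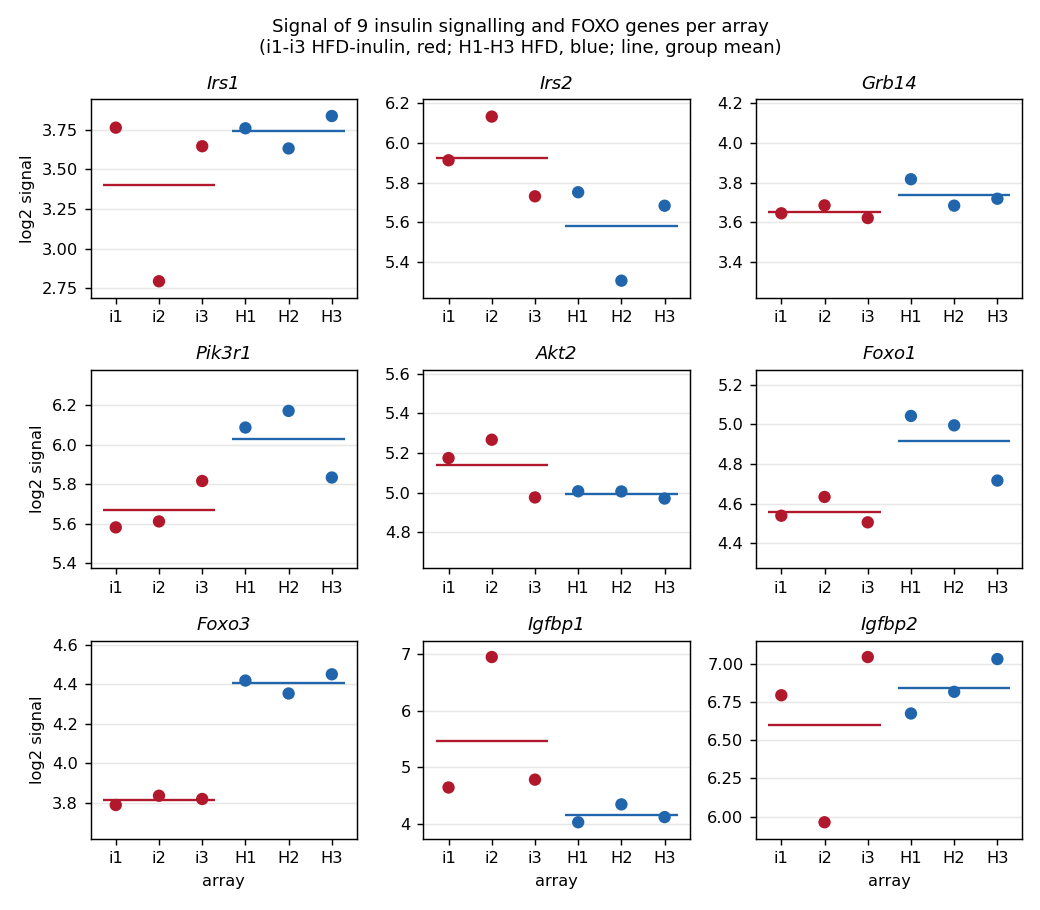
Log2 signal (vertical axis) of each of the 9 genes in each array (horizontal axis), with HFD-inulin arrays i1 to i3 in red, HFD arrays H1 to H3 in blue and a line at each group mean; the vertical scale differs between genes. Foxo3 lies between 3.79 and 3.84 in HFD-inulin and between 4.35 and 4.45 in HFD, and Igfbp1 reaches 6.94 in i2.

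Of the 9 members, Foxo3 had the widest gap between the groups. This factor, which induces genes of stress resistance, autophagy and cell-cycle arrest, measured 3.79, 3.84 and 3.82 in HFD-inulin and 4.42, 4.35 and 4.45 in HFD (here and below in the order of array 1, 2 and 3). Every HFD-inulin array lay below every HFD array, with 0.52 between the nearest, while the arrays within a group spanned 0.05 and 0.10. The log2 difference was -0.59 (SE 0.06, 95% interval -0.74 to -0.45), a 0.664-fold ratio. It ranked 6th by p among all probe sets, and its adjusted p in limma was 0.390. The low-signal part gave -0.60 and the high-signal part -0.58.

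Foxo1, the main FOXO factor of glucose output in liver, measured 4.54, 4.63 and 4.51 in HFD-inulin and 5.04, 4.995 and 4.72 in HFD. The groups did not overlap, but HFD array 3 lay only 0.08 above the nearest HFD-inulin array. The log2 difference was -0.36 (SE 0.10, interval -0.60 to -0.12, limma adjusted p = 0.902), with -0.46 in the low-signal part and -0.35 in the high-signal part. Leaving out 1 array at a time gave -0.46 to -0.30 for Foxo1 and -0.62 to -0.57 for Foxo3.

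The other FOXO genes had smaller differences. Foxo4 measured 3.40, 3.33 and 3.40 in HFD-inulin and 3.45, 3.33 and 3.31 in HFD, a log2 difference of 0.01 (SE 0.07, interval -0.15 to 0.17). Foxo6 differed by -0.06 (interval -0.40 to 0.29). Within each array, Foxo3 minus Foxo4 was 0.39, 0.50 and 0.43 in HFD-inulin and 0.97, 1.02 and 1.14 in HFD, so their balance was lower in every HFD-inulin array. Foxo3 minus Foxo1 was -0.75, -0.80 and -0.68 against -0.62, -0.64 and -0.27, with the largest departure in HFD array 3, where Foxo1 was low. These balances were chosen after the values were seen and were not tested.

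By the likeness of their profile over the 6 arrays, the genes nearest to Foxo3 were Hnf4a, a nuclear receptor of hepatocyte identity, Ly6e and Sult5a1, a sulfotransferase gene. Their centred log2 values departed from those of Foxo3 by a root mean square of 0.06, 0.08 and 0.10, among 3261 candidates. Hnf4a measured 6.86, 6.86 and 6.77 in HFD-inulin and 7.38, 7.46 and 7.44 in HFD, a log2 difference of -0.60 (limma adjusted p = 0.390). The nearest to Foxo1 among 6097 candidates were Rad54l2, Ifi207 and Il15ra, with root mean squares of 0.04, 0.07 and 0.07. Rad54l2 measured 4.40, 4.55 and 4.39 against 4.87, 4.93 and 4.66, with HFD array 3 lowest of its group as for Foxo1. All 6 genes were picked for likeness over these same arrays, so similar differences and orders of arrays follow from the choice.

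**Figure D2:**
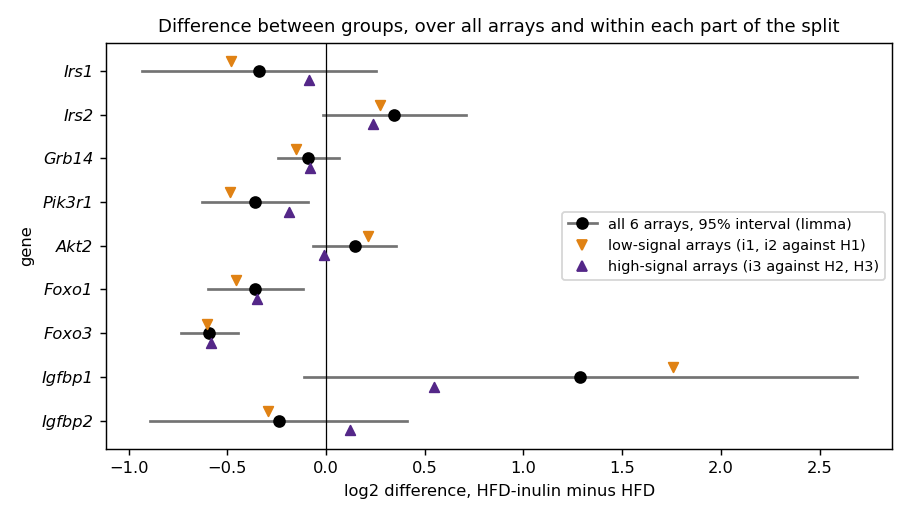
Log2 difference of HFD-inulin minus HFD (horizontal axis) for each gene (vertical axis), over all 6 arrays with its 95% interval from limma (black points and grey lines) and within the low-signal part (orange) and the high-signal part (purple). Foxo3 is at -0.60 in the low-signal part and -0.58 in the high-signal part, while Igfbp1 has 1.76 in the low-signal part and 0.55 in the other.

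Upstream of the factors, the adaptor genes went in opposite directions in their means and overlapped between groups. Irs2, the adaptor that FOXO factors induce in fasting, measured 5.91, 6.13 and 5.73 in HFD-inulin and 5.75, 5.31 and 5.68 in HFD. The lowest HFD-inulin array and the highest HFD array crossed by 0.02, and the log2 difference was 0.35 (SE 0.15, interval -0.02 to 0.71, limma adjusted p = 0.902). It was 0.21 without HFD array 2, with 0.27 in the low-signal part and 0.24 in the high-signal part. Irs1 measured 3.76, 2.80 and 3.65 against 3.76, 3.63 and 3.84.

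The low Irs1 value belonged to HFD-inulin array 2 alone, and the other 2 HFD-inulin arrays lay among the HFD arrays. The log2 difference of Irs1 was -0.34 (SE 0.25, limma adjusted p = 0.909) and -0.04 without that array, with -0.48 in the low-signal part and -0.09 in the high-signal part. Irs2 minus Irs1 within an array was 2.15, 3.34 and 2.09 in HFD-inulin and 1.99, 1.67 and 1.85 in HFD. The balance was thus higher in each HFD-inulin array, by 0.09 between the nearest arrays. This balance and those of Akt2 and Igfbp1 below were also chosen after the values were seen and were not tested.

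Grb14, an adaptor that binds the active insulin receptor and inhibits it, measured 3.64, 3.68 and 3.62 in HFD-inulin and 3.82, 3.68 and 3.72 in HFD. Its log2 difference was -0.09 (interval -0.24 to 0.07, limma adjusted p = 0.909), and the arrays of the groups met at 3.68. It was -0.15 in the low-signal part, -0.08 in the high-signal part and -0.05 without HFD array 1. Over all 6 arrays this was the smallest difference of the 9 members.

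Pik3r1 encodes p85 alpha, the regulatory subunit that tethers PI3-kinase to the IRS proteins. It measured 5.58, 5.61 and 5.82 in HFD-inulin and 6.09, 6.17 and 5.83 in HFD. The groups were apart by 0.02, since HFD-inulin array 3 and HFD array 3 nearly met. The log2 difference was -0.36 (SE 0.11, interval -0.63 to -0.09, limma adjusted p = 0.902). It was -0.49 in the low-signal part and -0.19 in the high-signal part.

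Akt2, the AKT kinase most tied to insulin action on metabolism, measured 5.17, 5.27 and 4.98 in HFD-inulin and 5.01, 5.01 and 4.97 in HFD. HFD-inulin arrays 1 and 2 lay above the HFD arrays and array 3 among them. The log2 difference was 0.14 (SE 0.09, interval -0.06 to 0.35, limma adjusted p = 0.902), with 0.21 in the low-signal part and -0.012 in the high-signal part. It was 0.08 without HFD-inulin array 2 and 0.23 without HFD-inulin array 3. Akt1 differed by 0.02 (SE 0.06). Akt2 minus Akt1 was -0.11, -0.04 and -0.29 in HFD-inulin and -0.29, -0.27 and -0.25 in HFD, and the groups overlapped.

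Of the secreted binding proteins, Igfbp1 had the largest difference of the 9 members and the widest spread. IGFBP1 binds insulin-like growth factors in blood, and its gene is switched off by insulin and on by fasting, glucocorticoids and inflammatory cytokines. Igfbp1 measured 4.65, 6.94 and 4.79 in HFD-inulin and 4.03, 4.35 and 4.13 in HFD. All 3 HFD-inulin arrays lay above the HFD arrays, by 0.30 at the nearest, and HFD-inulin array 2 stood 2.16 above the next highest.

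The log2 difference of Igfbp1 was 1.29 (SE 0.59, interval -0.11 to 2.69, limma adjusted p = 0.902), a 2.44-fold ratio. Without HFD-inulin array 2 it was 0.55, and it was 1.76 in the low-signal part and 0.55 in the high-signal part. Igfbp1 thus differed from the HFD arrays most in the array where Irs1 and Igfbp2 were lowest.

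Igfbp2, a binding protein whose gene is abundant in liver and is reduced in obesity, measured 6.79, 5.96 and 7.04 in HFD-inulin and 6.67, 6.82 and 7.03 in HFD. HFD-inulin array 2 alone lay below the HFD arrays. The log2 difference was -0.24 (SE 0.27, limma adjusted p = 0.934), and it was 0.078 without that array, -0.30 in the low-signal part and 0.12 in the high-signal part. Igfbp1 minus Igfbp2 was -2.15, 0.98 and -2.26 in HFD-inulin and -2.64, -2.47 and -2.90 in HFD.

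HFD-inulin array 2 also stood apart in some markers of other cells. The mean log2 signal of 7 neutrophil markers was 1.75 there and 1.28 to 1.33 in the other arrays, near the array medians. S100a8, S100a9 and Retnlg were the 3 of 7 with a higher mean in HFD-inulin. The neutrophil granule gene Mpo measured 1.75 in that array and 1.72 to 1.83 in the others. In that array Elane, Csf3r and Cxcr2 also lay within the range of the others. The mean of 5 cholangiocyte markers was 2.21 there and 1.77 to 1.92 elsewhere, with Krt19 standing furthest out, at 3.04 against 1.82 to 1.93. Krt7 and Epcam were also highest there (2.61 and 1.78), while Sox9 and Cftr lay among the other arrays. Socs3, a feedback inhibitor of cytokine and insulin signalling, measured 4.57 in the same array and 3.49 to 3.72 in the others. The part of these in the Igfbp1, Irs1 and Igfbp2 values was not tested.

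Between the groups, the mean of the 8 hepatocyte markers was 9.93, 9.88 and 10.003 in HFD-inulin and 10.1, 10.2 and 10.1 in HFD, so the groups did not overlap. Of these, 2 of 8 had a higher mean in HFD-inulin, and Hnf4a and Cps1 had the largest differences (-0.60 and -0.68). In Hnf4a, Cps1 and Apob (-0.17) the groups were apart, while they overlapped in Alb, Ttr, Apoa1, Tdo2 and Cyp2e1. The list mean thus does not describe each marker. Over all probe sets the groups were apart in 10.3%, and in 13.9% of those at least as bright as the dimmest member. The mean of 8 endothelial markers was 4.71 to 4.76 in HFD-inulin and 4.77 to 4.90 in HFD, with 1 of 8 higher, and that of 8 Kupffer cell and macrophage markers was 4.75 to 4.94 and 4.91 to 5.08, with 2 of 8 higher. The mean of 7 lymphocyte markers was 1.35 to 1.48 and 1.48 to 1.56, near the array medians, and that of 8 stellate cell markers was 3.84 to 4.02 and 3.83 to 3.98. In whole liver RNA, fewer cells of a type and less RNA per cell cannot be told apart, and the part of these markers in the members' differences was not tested.

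**Figure D3:**
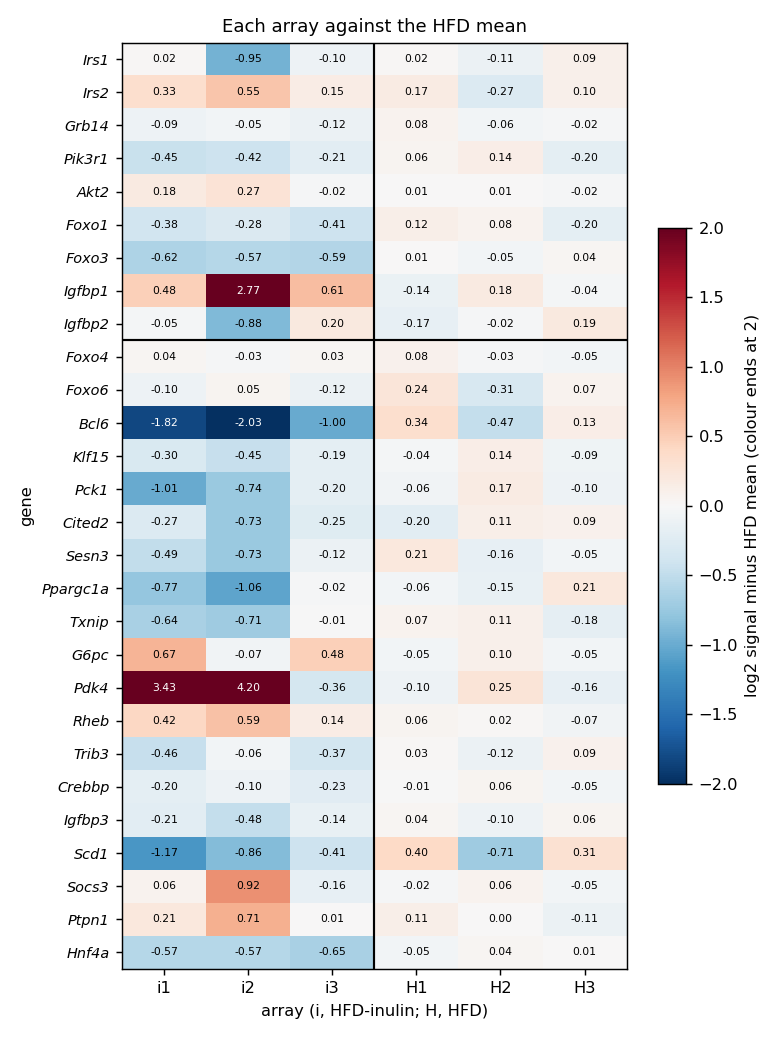
Log2 signal of each array (columns; i1 to i3 HFD-inulin, H1 to H3 HFD) minus the HFD mean for the 9 members (above the line) and other genes of the pathway with Hnf4a (below it), with the value printed in each cell and colour ending at 2. Foxo3 is at -0.62, -0.57 and -0.59 in the HFD-inulin arrays, whereas Irs1 and Igfbp2 are low in i2 alone (-0.95 and -0.88).

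The rest of the pathway was read from 6 lists with 98 further genes, of which 92 were measured. After adjustment 0 of 92 passed in limma. Without adjustment 10 (10.9%) were under 0.05, 9 lower and 1 higher in HFD-inulin, beside 5.15% of all probe sets and 11.6% of those at least as bright as the dimmest member. The 9 lower genes are 9.78% of the 92, beside 2.64% and 2.82%. In 15 (16.3%) the groups did not overlap, 12 lower and 3 higher, beside 10.3% of all probe sets and 13.9% of the bright ones. The median difference of the 92 was -0.02, and that of all probe sets was also -0.02, while that of the bright ones was 0.03. The count of 10 was 22 without HFD-inulin array 3 and 5, 6 and 4 without HFD array 1, 2 or 3. The shares above belong to the fit on all 6 arrays and were not counted for these fits. The changes in count are thus not read as particular to the pathway genes.

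At the receptor, 12 adaptor and inhibitor genes gave 0 under 0.05 without adjustment, beside 5.15% of all probe sets, and a median difference of 0.01. Those with the smallest p were the receptor phosphatase gene Ptpn1 (0.31), the adaptor genes Shc1 (0.10) and Sh2b1 (-0.07), and Socs3 (0.27). Ptpn1 measured 4.37, 4.87 and 4.17 in HFD-inulin and 4.27, 4.17 and 4.05 in HFD, again highest in HFD-inulin array 2.

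Of 25 genes of PI3-kinase, AKT, TOR and their regulators, 1 was under 0.05 higher and 1 lower, with a median difference of -0.04. That is 8% of the list, beside 5.15% of all probe sets and 11.6% of the bright ones. Rheb, the small GTPase that activates TOR complex 1, measured 5.84, 6.01 and 5.57 in HFD-inulin and 5.48, 5.44 and 5.35 in HFD, a log2 difference of 0.38 (SE 0.12, limma adjusted p = 0.902) with groups apart. Trib3, a pseudokinase reported to bind AKT, differed by -0.30 and overlapped between groups. The AKT phosphatase genes Phlpp1 and Phlpp2 differed by -0.22 and 0.12, each with groups apart.

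Among 12 partners and regulators of FOXO factors, 1 (8.33%) was under 0.05, lower, beside 5.15% of all probe sets and 11.6% of the bright ones. The median was -0.02. The coactivator gene Crebbp measured 5.01, 5.11 and 4.98 in HFD-inulin and 5.20, 5.27 and 5.16 in HFD (difference -0.18). Ppargc1a, which encodes the coactivator PGC-1 alpha, measured 2.92, 2.63 and 3.67 against 3.64, 3.55 and 3.90. Its difference of -0.62 came from HFD-inulin arrays 1 and 2, with array 3 among the HFD values. Foxa2 differed by 0.12 and Stk4 by 0.06.

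The 24 genes known to be induced by FOXO factors did not go one way. Their means were lower in 13 and higher in 11, with a median difference of -0.08, and 5 (20.8%) were under 0.05 without adjustment, each lower. The shares lower were 2.64% of all probe sets and 2.82% of the bright ones, and those in either direction 5.15% and 11.6%. The groups were apart in 7 lower genes and 1 higher, beside 6.02% and 4.32% of all probe sets. Bcl6, a transcriptional repressor, had the smallest p, at 2.62, 2.42 and 3.44 in HFD-inulin and 4.78, 3.97 and 4.57 in HFD, a log2 difference of -1.62 (SE 0.31, limma adjusted p = 0.902). It was -2.27 within the low-signal part and -0.83 within the high-signal part.

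Klf15, a factor that promotes amino acid use for glucose output, measured 5.92, 5.77 and 6.04 against 6.19, 6.36 and 6.14 (difference -0.32). Pck1, the gluconeogenic phosphoenolpyruvate carboxykinase, measured 8.70, 8.98 and 9.51 against 9.65, 9.88 and 9.61 (-0.65, with -0.81 in the low-signal part and -0.23 in the high-signal part). Cited2, a coregulator of CBP and p300, differed by -0.42. In each of these 3 genes the groups did not overlap.

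Other induced genes, named after their values were seen, went otherwise. G6pc, the last enzyme of glucose output, measured 8.40, 7.66 and 8.21 in HFD-inulin and 7.68, 7.84 and 7.68 in HFD, with HFD-inulin array 2 the lowest of all. Pdk4, an inhibitor of glucose oxidation that fasting induces, measured 7.03, 7.79 and 3.24 against 3.50, 3.85 and 3.44. HFD-inulin arrays 1 and 2 were thus far above the HFD arrays and array 3 below them, and the mean difference of 2.42 (SE 1.10) describes neither.

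**Figure D4:**
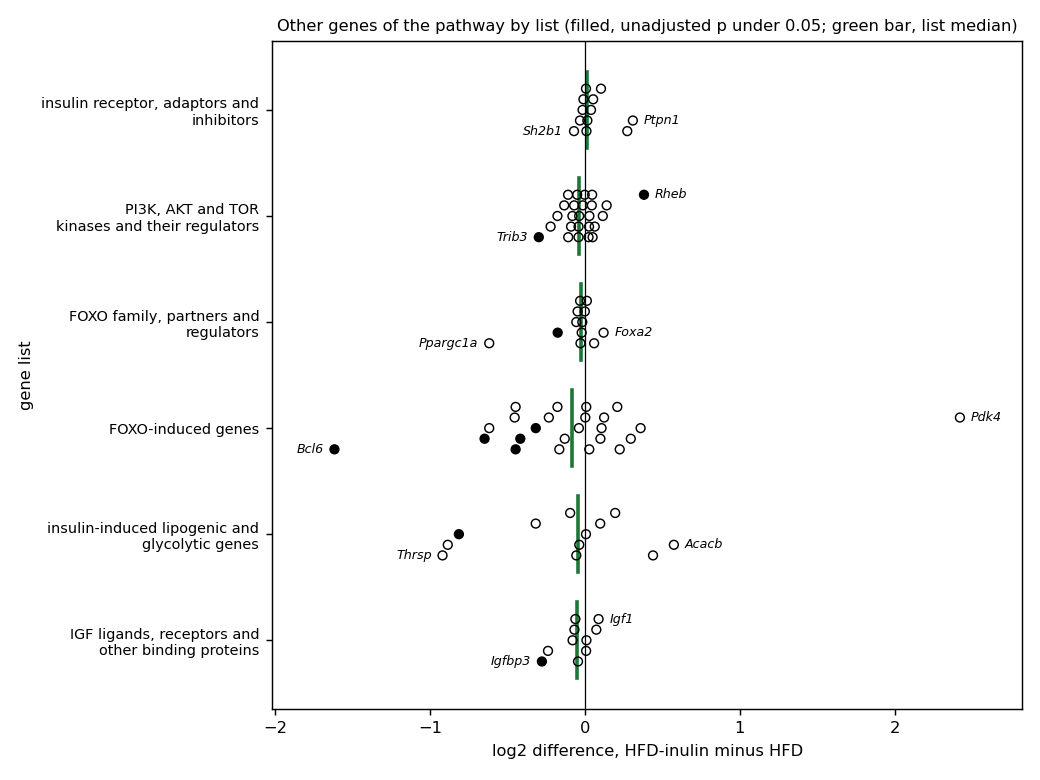
Log2 difference of HFD-inulin minus HFD (horizontal axis) for each measured gene of the 6 lists (vertical axis), filled where the unadjusted p is under 0.05, with a green bar at each list's median and the lowest and highest gene of each list named. The medians run from -0.08 to 0.01, and the FOXO-induced genes spread from -1.62 (Bcl6) to 2.42 (Pdk4).

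Genes that insulin induces through SREBP1c and other factors gave 1 of 12 (8.33%) under 0.05, lower, and a median of -0.05. The shares beside it are 5.15% of all probe sets and 11.6% of the bright ones. Scd1, a desaturase, measured 9.26, 9.56 and 10.01 in HFD-inulin and 10.8, 9.71 and 10.7 in HFD (difference -0.81), and HFD array 2 lay among the HFD-inulin arrays. The citrate lyase gene Acly (-0.32), Thrsp (-0.92) and the pyruvate kinase gene Pklr (-0.89) had the next smallest p, with groups that overlapped. Fasn, fatty acid synthase, differed by 0.44 in the other direction.

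Of 10 IGF ligands, receptors and other binding proteins, 1 (10%) was under 0.05, lower, with a median of -0.05. The same shares stand beside it, 5.15% of all probe sets and 11.6% of the bright ones. Igfbp3, the main IGF carrier in blood, measured 3.44, 3.16 and 3.50 against 3.69, 3.54 and 3.70 (difference -0.28), with groups apart. Igf1 differed by 0.09 (interval -0.19 to 0.36). Igf2, Igfbp6 and Igfbp4 differed by -0.08, -0.07 and -0.06.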

How the data were processed

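Liver RNA of 6 mice was measured on 1 Affymetrix array each. The values are log2 signals as deposited, produced by the authors in Affymetrix Expression Console (version 1.0, per the submitters' processing notes). Their range gave the log base, and the algorithm and detection calls are in none of the sources used here. GEO's platform annotation, updated through RefSeq (GRCm38.p6), gave 31258 of 65956 probe sets 1 gene symbol, 1492 several and 33206 none. HFD-inulin minus HFD was fitted over all probe sets with limma 3.58.1 in R 4.3.3, unfiltered and without covariates, two-sided, with Benjamini-Hochberg adjustment and a threshold of 0.05, after a run on simulated data. SEs and intervals are limma's, and 3 arrays per group limit their precision.

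The members, lists, motifs, tests and the array split were chosen with earlier results of these data known. Named are the members, up to 4 genes per list by smallest unadjusted p, and 3 genes of most similar profile for Foxo1 and for Foxo3 (not dimmer than the median probe set, SD at least 0.75 of the factor's). Foxo4, Foxo6, Akt1, Fasn, Igf1, G6pc, Pdk4 and the single marker genes fall outside this rule and were chosen after their values were seen. Alternatives varied the prior, dim filter, scaling, weights, blocks, arrays and probe set. The planned protein motifs were not searched. Promoters of 9 of the 10 listed genes were matched by symbol.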

Additional observations from a re-analysis of the deposited data

How the results depend on the processing

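Of 17 alternatives, 5 (the prior, the dim filter, the replicate block and both probe set rules) leave the members' differences as they are and bear only on p. Under the other 12, 105 of 108 member differences kept the direction of all 6 arrays. In none of the 17 did a member pass an adjusted p of 0.05 in limma, and 2 to 6 were under 0.05 unadjusted. The reversals were Akt2 at -0.012 and Igfbp2 at 0.12 in the high-signal part, and Igfbp2 at 0.078 without HFD-inulin array 2. Foxo3 ran from -0.62 to -0.56 with adjusted p from 0.0796 to 0.9999, and Foxo1 from -0.46 to -0.30. A trended and robust prior called 4 probe sets, none of them a member. Leaving out 1 array gave 2 to 6 members and 4 to 22 pathway genes under 0.05 without adjustment. The shares over all probe sets were not counted in these fits, so the swings are not read as particular to these genes. Quantile normalization gave 16 such pathway genes, beside 1610 higher and 1471 lower among all probe sets. Members with groups apart numbered 7 in the low-signal part and 7 in the high-signal part. The share of all probe sets with groups apart was not counted within either part. These counts are thus not read as particular to the members. In each part a group holds 1 array, so overlap is rarer by construction for any probe set. Each such lone array is assumed to vary like the others. Unadjusted calls over all probe sets were 48.8% higher and 51.2% lower, and 68.3% and 31.7% after median centring. The deviations of equally numbered arrays correlated at 0.26, -0.28 and 0.40, so the numbers were not read as pairs. With the replicate block, 4 members and 10 pathway genes were under 0.05 without adjustment and 0 probe sets passed. No detection limit is known for these signals.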
